A study of Drosophila melanogaster with 3 samples.

Results

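The genes described here are 9 markers of glial cells, the support cells of the nervous system. Their rows were taken from the deposited table by gene symbol, and all 9 were found among its 15603 genes. The 9 genes, and the other gene lists set beside them, were chosen with earlier results of these data known. They comprise 3 general glial genes (*repo*, *gcm* and *loco*), 3 genes of astrocyte-like glia (*alrm*, *Eaat1* and *Gs2*), 1 gene of the barrier glia (*moody*) and 2 genes of glia that enclose cell bodies and axons (*nrv2* and *wrapper*).

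In *Drosophila*, the transcription factor Gcm starts the glial fate in the embryo and switches on *repo*, which encodes a homeodomain protein that nearly all glia keep. The glia of the eye disc are not made by the retinal epithelium. They move in from the brain through the optic stalk, and include surface glia that continue the blood-brain barrier and wrapping glia that enclose photoreceptor axons. Astrocyte-like glia reside in the synaptic regions of the central nervous system (CNS), where they take up neurotransmitter.

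RNA was profiled in cells sorted by GFP from the eye-antennal discs (EADs) of wandering larvae at Day 6, with 50 discs and 1 library for each of 3 pools. The tumor pool holds GFP+ cells and the tumor microenvironment (TME) pool the GFP- cells of the same genotype, in which *ey-flp*, an *Act>y+>Gal4* driver, *UAS-GFP*, *UAS-RasV12* and *Frt82B scrib2* over *Frt82B, tubGal80* in a *y,w* background give labeled *RasV12, scrib-/-* clones. The TME pool is defined by the lack of GFP, so it mixes the cell types around the clones, and these cells carry the transgenes too. The control pool holds GFP+ cells of *GMRGFP* discs, where the GMR driver is active in the differentiating retina behind the morphogenetic furrow.

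The libraries held an estimated 1841569 (tumor), 10991880 (TME) and 1761525 (control) fragments, so the TME library counts a given level most precisely. Levels are in FPKM, fragment counts scaled to transcript length and library depth. Ratios carry exact 95% Clopper-Pearson intervals from the estimated fragments, which cover counting error only, and with 1 library per pool no difference has a replicate check or a test. To be called higher in a library, a gene needed a level above 5 FPKM in it and a ratio of at least 2 to the other library. The cells in the control pool were compared with their label. Of 7 photoreceptor and retinal genes, none was called higher in the control, but 6 of them were under the floor there and could not be, which leaves *gl*. *boss* was listed at 0 in the tumor and was far under the floor in the TME (0.157 FPKM) and the control (0.197) too. The summed level of the 7 genes was 30.7 FPKM (tumor), 51.7 (TME) and 22.0 (control). *gl*, which encodes Glass, the zinc finger factor that binds the GMR enhancer, was at 16.1, 29.6 and 11.6 FPKM. In the TME 2 of the 7 genes were called higher than in the control, beside 6.39% of all genes. These were *gl*, 2.54-fold higher (1.95 to 3.36), and *lz*, 3.40-fold higher (1.70 to 8.06). *lz* was at 5.22 FPKM in the TME, just above the floor. No gene of the 7 was called between tumor and control. The control library also held RNA of neurons and neural precursors, with values given beside the glial genes they moved with. Photoreceptors are neurons too, so pan-neuronal genes alone do not tell retina from CNS tissue.

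The 9 glial genes did not move as a group but in 3 patterns. *alrm*, *Gs2*, *Eaat1* and *gcm* were high in the control and low in both libraries from tumor-bearing discs. *repo* and *wrapper* were lower in the tumor than in both other libraries, and *repo*, but not *wrapper*, was also called lower in the TME than in the control. *loco*, *moody* and *nrv2* were found in all 3 libraries, and *moody* was highest in the tumor.

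**Figure D1:**
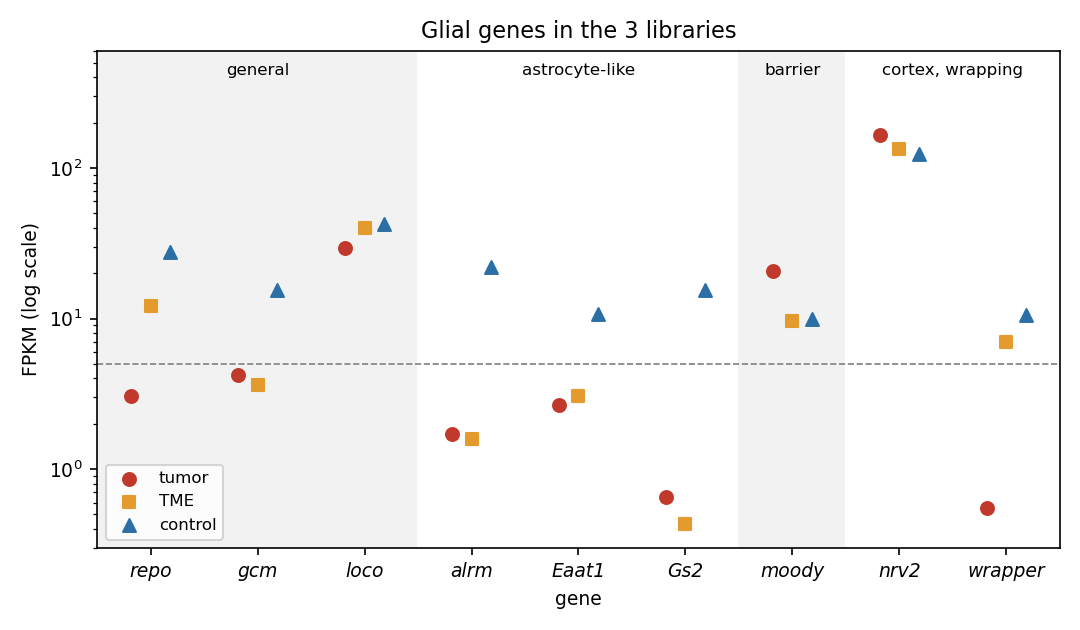
Levels of the 9 glial genes in FPKM on a log axis, 1 point for each library, with the genes ordered by the glia they mark and a dashed line at 5 FPKM. The 3 astrocyte-like genes lie above the line in the control alone, while *nrv2* lies above 120 FPKM in each library.

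Against the control, 6 of the 9 genes were called lower in the tumor (*repo*, *gcm*, *alrm*, *Eaat1*, *Gs2* and *wrapper*), where the rule called 20.2% of all genes above 5 FPKM in either library. Only *moody* was called higher, against 12.4% of genes. In the TME, 5 of the 9 were called lower than in the control (the same genes without *wrapper*) beside 15.3% of genes, and none was called higher, beside 6.39%. Between tumor and TME, *repo* and *wrapper* were called lower in the tumor beside 8.72% of genes, and *moody* higher beside 6.53%. These shares over all genes also apply to the counts of the other gene lists given below. The median log2 ratio of FPKM + 1 over the 9 genes was -1.68 for tumor over control, -1.12 for TME over control and 0.08 for tumor over TME. Over 9523 genes with a mean of at least 1 FPKM, the same medians were -0.07, -0.13 and 0.08. In a pool of sorted cells, fewer cells of a type and less RNA per cell cannot be told apart.

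**Figure D2:**
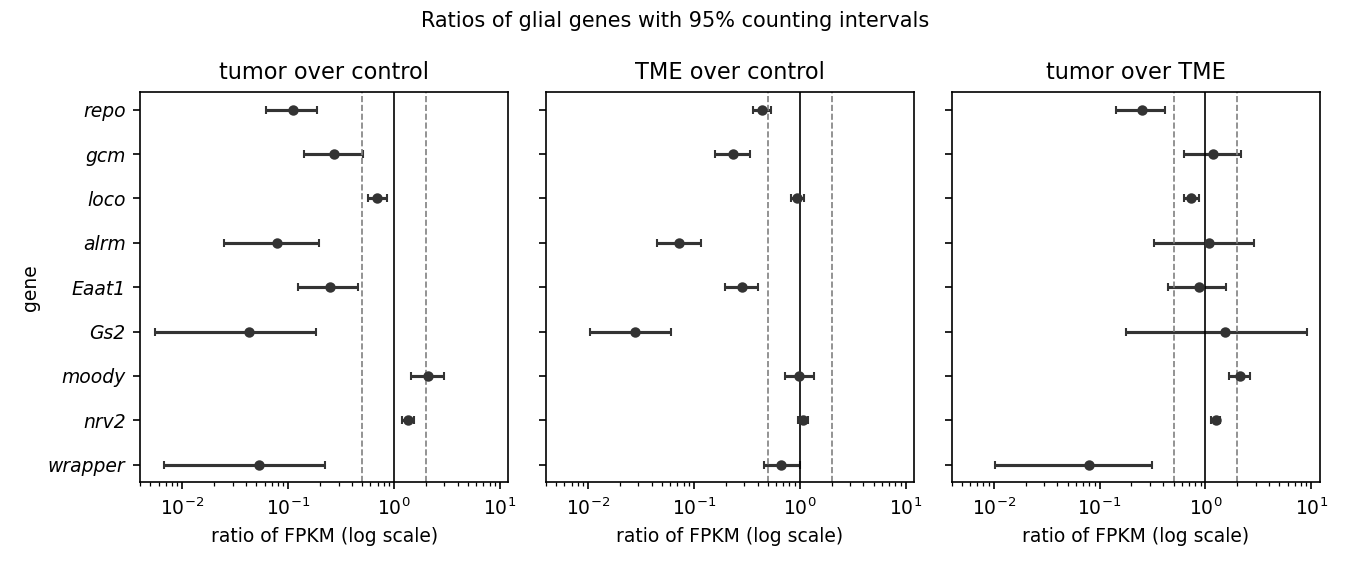
Ratios of FPKM for the 9 glial genes on a log axis, in 1 panel for each pair of libraries, with bars for the 95% counting interval, a solid line at equal levels and dashed lines at 2-fold. The bars of *alrm*, *Eaat1*, *Gs2* and *gcm* reach across equal levels between tumor and TME, whereas those of *repo* and *wrapper* lie below it.

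The 3 astrocyte-like genes were low in the tumor and the TME, and *alrm* and *Gs2* had the widest gaps of the 9 genes between control and TME. *alrm*, which encodes a leucine-rich repeat protein of astrocyte-like glia, was at 1.72 FPKM (tumor), 1.58 (TME) and 21.8 (control), where it was above 66.0% of the genes detected. The control was 12.7-fold above the tumor (95% interval 5.08 to 39.9) and 13.8-fold above the TME (8.57 to 22.1). *Gs2*, glutamine synthetase, which converts the glutamate that glia take up, was at 0.657 FPKM (tumor), 0.432 (TME) and 15.5 (control). The control was 35.9-fold above the TME (16.3 to 96.7) and 23.6-fold above the tumor (5.45 to 179), the latter from about 2 tumor fragments.

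*Eaat1*, the main glial glutamate transporter, differed less than *alrm* and *Gs2*. It was at 2.66 FPKM (tumor), 3.04 (TME) and 10.8 (control), a ratio of control to TME of 3.54 (2.46 to 5.04), whose interval lies below those of *alrm* and *Gs2*. *gcm* was at 4.21 FPKM (tumor), 3.60 (TME) and 15.5 (control), so the control was 3.67-fold higher than the tumor (1.95 to 7.06) and 4.29-fold higher than the TME (2.93 to 6.29). All 4 genes were above 5 FPKM in the control alone and above 10 FPKM there, so that any level under the floor in the other libraries met the rule.

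Between the tumor and the TME, these 4 genes were at similar low levels. The tumor to TME ratio was 1.09 for *alrm* (0.328 to 2.85), 1.52 for *Gs2* (0.177 to 9.15), 0.876 for *Eaat1* (0.447 to 1.57) and 1.17 for *gcm* (0.624 to 2.15). Each of these intervals spans equal levels and reaches a 2-fold difference in at least 1 direction, so a difference of that size was not excluded. The intervals of *alrm* and *Gs2*, from about 5 and 2 fragments in the tumor library, reach it in both directions. That of *Eaat1* stops short of a 2-fold higher level in the tumor, and that of *gcm* short of a 2-fold lower one.

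*repo*, the defining marker of glia, was found in all 3 libraries but in a graded order. It was at 27.5 FPKM (control), 12.1 (TME) and 3.06 (tumor), from about 139, 381 and 16 fragments. The control was 2.28-fold above the TME (1.86 to 2.77), and the tumor was lower than the TME by a factor of 3.94 (2.40 to 6.97). With a required ratio of 3, *repo* is no longer called between TME and control. *CG7156* lies on the opposite strand over 6.11% of the exon bases of *repo* and was at 6.54 FPKM (tumor), 6.21 (TME) and 8.14 (control). No source used here states that the counting kept strand, so fragments of that stretch cannot be assigned to either gene.

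*wrapper*, which encodes an immunoglobulin domain protein on the surface of midline and wrapping glia, was the gene with the smallest gap between TME and control among those low in the tumor. It was at 10.6 FPKM (control), 6.996 (TME) and 0.555 (tumor). The control to TME ratio was 1.51 (0.997 to 2.19), and the tumor was 12.6-fold below the TME (3.18 to 97.5), with about 2 fragments in the tumor against 142. The intervals of TME over control for *wrapper* and *repo* overlap (0.457 to 1.00 and 0.361 to 0.537), and both lie above that of *alrm* (0.0452 to 0.117).

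*loco*, *moody* and *nrv2* were above 5 FPKM in every library. *loco* encodes an RGS domain regulator of G proteins, a target of Gcm in embryonic glia that acts with the receptor Moody at the barrier. It was at 29.6 FPKM (tumor), 40.2 (TME) and 42.5 (control), and no pair of libraries reached 2-fold. The interval of the tumor to control ratio, 0.696 (0.565 to 0.855), lies below equal levels and short of a 2-fold difference. *loco* shares 13.5% of its exon bases with an antisense gene, *CR43474*, which was at 8.66 FPKM (tumor), 4.68 (TME) and 5.85 (control).

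*moody*, the G protein-coupled receptor of the surface glia that form the blood-brain barrier, was the member called higher in the tumor. It was at 20.6 FPKM (tumor), 9.69 (TME) and 9.89 (control). The tumor was 2.08-fold above the control (1.46 to 2.97) and 2.12-fold above the TME (1.68 to 2.65), while TME and control were level (0.979, 0.723 to 1.35). Both ratios fall below 2 when the libraries are scaled by the median ratio, to 1.95 and 1.94. The tumor was thus the library with most *moody* and least *repo*.

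*nrv2*, a beta subunit of the sodium pump that also takes part in the septate junctions of epithelia, was the most abundant of the 9 in each library. It was at 166 FPKM (tumor), 133 (TME) and 123 (control), above at least 95% of the detected genes in each library. The ratios were 1.35 for tumor over control (1.18 to 1.54), 1.25 for tumor over TME (1.13 to 1.37) and 1.08 for TME over control (0.971 to 1.20). In the tumor *nrv2* was 54.2 times the level of *repo*, against 11.04 times in the TME and 4.49 times in the control.

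Set against *repo* within each library, the intervals of control and TME lay apart for some glial genes and overlapped for others. Overlap of 2 such intervals does not show equal proportions. *alrm* was at 0.794 of the level of *repo* in the control (0.576 to 1.08) and 0.131 in the TME (0.0869 to 0.195). *Gs2* was at 0.564 (0.390 to 0.809) and 0.0358 (0.0141 to 0.0735), and *gcm* at 0.562 (0.401 to 0.790) and 0.299 (0.229 to 0.387). For these 3 genes the intervals did not meet, so the gap between TME and control was wider for them than for *repo*. The intervals overlapped for *Eaat1*, at 0.391 (0.278 to 0.543) and 0.252 (0.198 to 0.318), and for *wrapper*, at 0.384 (0.253 to 0.555) and 0.580 (0.473 to 0.702). The order was the reverse for *moody*, at 0.360 in the control (0.254 to 0.502) and 0.803 in the TME (0.689 to 0.938), and for *loco*, at 1.55 (1.24 to 1.92) and 3.33 (2.97 to 3.74). In the tumor the proportions rest on about 16 fragments of *repo* and spanned wide intervals, such as 0.163 to 1.62 for *alrm*.

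**Figure D3:**
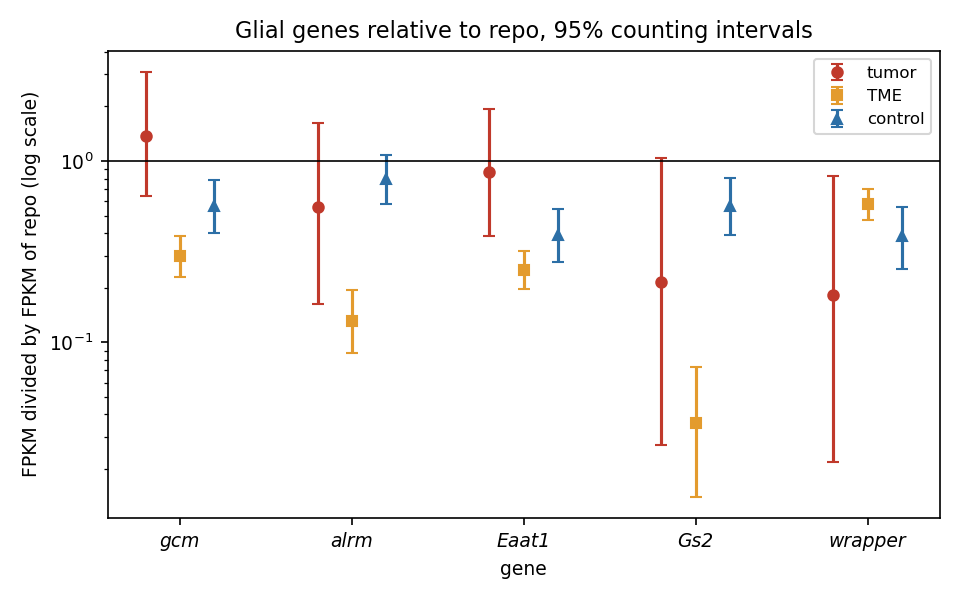
FPKM of 5 glial genes divided by the FPKM of *repo* in the same library, on a log axis with 95% counting intervals, colored by library. *alrm* and *Gs2* lie far lower in the TME than in the control, and *wrapper* does not.

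Of 6 further genes of astrocytes and neuropil glia 4 were found by symbol, of which 3 were called lower in tumor cells and 2 in TME cells against control cells, and the fourth, *e*, was not called. *Eaat2*, a second acidic amino acid transporter, was at 6.90 FPKM (tumor), 0.948 (TME) and 30.3 (control). *Gs1*, the mitochondrial glutamine synthetase, was at 0.267, 3.42 and 29.9 FPKM, respectively. *htl*, an FGF receptor used by migrating glia and by mesoderm, resembled *wrapper* more than *alrm*, at 0.815 FPKM (tumor), 11.3 (TME) and 13.7 (control). *e*, the ebony gene, whose enzyme conjugates amines in glia and in cuticle, had another order, at 4.18 FPKM (tumor), 0.783 (TME) and 1.13 (control), under the floor in each library (tumor over control 3.71, 1.47 to 11.1). *Eaat2* differs from *Eaat1* in that the tumor was 7.28-fold above the TME (4.35 to 12.01).

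The paralogs of the members are close enough in role to be set beside them, and sharing of reads between them was not tested. *gcm2*, which acts with *gcm* in the embryo, was at 0.241 FPKM (tumor), 0.119 (TME) and 2.98 (control), so *gcm* was 5.19 times as abundant in the control (2.64 to 10.4). *nrv3*, a sodium pump subunit of neurons, was at 3.39 FPKM (tumor), 3.46 (TME) and 57.7 (control). *nrv1*, the third of these subunits, was at 48.0, 63.9 and 53.6 FPKM. *nrv3* thus had the order of the astrocyte-like genes, while *nrv1* differed less than 2-fold between libraries. *Atpalpha*, the gene of the pump's catalytic subunit, was at 142 FPKM (tumor), 166 (TME) and 209 (control). Of these 4 sodium pump genes *nrv3* was the 1 called, lower in both other libraries than in the control, and their summed level was 360, 367 and 443 FPKM.

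Genes of septate junctions, which barrier glia share with epithelia, were abundant in each library, with summed levels of 1288 FPKM (tumor), 1113 (TME) and 837 (control) for the septate junction list. Of 10 septate junction genes 5 were called higher in tumor than in control cells, beside 12.4% of all genes. In TME cells 1 was called higher than in control cells, beside 6.39%, and none was called between tumor and TME. *Cont*, the contactin, was at 190 FPKM (tumor), 119 (TME) and 63.3 (control), and the claudin gene *pck* at 126, 127 and 47.4. Of 5 further genes of surface glia found by symbol, *Gli*, a junction protein gene named for its glial expression, was called higher in tumor and in TME cells than in control cells. The shares of all genes so called were 12.4% and 6.39%. *Jupiter* was called lower in TME cells than in control cells, beside 15.3% of all genes. *Gli* was at 77.7 FPKM (tumor), 42.5 (TME) and 21.0 (control), 3.70-fold above the control in the tumor (3.08 to 4.49) and 2.02-fold in the TME (1.71 to 2.42). *Jupiter*, which encodes a microtubule-associated protein, was at 389 FPKM (tumor), 240 (TME) and 566 (control), and *ogre*, an innexin gene, at 179, 168 and 120. *Tret1-1*, a trehalose transporter of the barrier, was at 37.3, 21.9 and 21.6 FPKM, and its tumor to control ratio of 1.72 (1.27 to 2.32) was not called. *Mdr65*, an efflux transporter gene of the barrier, was under the floor in each library and had the opposite order to *Gli*, at 2.32 FPKM (tumor), 3.92 (TME) and 4.39 (control), with a tumor to control ratio of 0.529 (0.274 to 0.985).

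Of 4 genes for partners of Moody in its pathway, none was called higher in any comparison. Both tumor and TME cells had 2 called lower than in control cells, beside 20.2% and 15.3% of all genes. The G protein gene *G-oalpha47A* was at 17.1 FPKM (tumor), 15.1 (TME) and 67.6 (control). *Pka-C1*, the catalytic subunit of protein kinase A, was at 21.9, 17.0 and 45.4 FPKM. *G-ialpha65A* was at 121, 134 and 100 FPKM, and the small GTPase gene *Rho1* at 574, 413 and 361. Among 4 other early glial factors, summed at 99.5, 107 and 90.8 FPKM, the transcription factor genes *pnt* (36.7, 32.7 and 34.1 FPKM) and *ttk* (61.6, 73.1 and 52.1) differed by less than 2-fold between libraries, and none of the 4 was called. The phagocytic receptor gene *drpr*, used by cortex and ensheathing glia and by hemocytes, was at 37.4 FPKM (tumor), 54.4 (TME) and 59.8 (control), and *Cyp4g15* of cortex glia at 0.468, 0.726 and 3.71.

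Most of the listed genes of neurons and neural precursors moved with the astrocyte-like genes. Of 9 neuroblast and lamina precursor genes 7 were called lower than in the control in the tumor and 7 in the TME, with a summed level of 71.4 FPKM (tumor), 79.0 (TME) and 396 (control), and none at 0. *pros* was at 2.47, 4.05 and 81.7 FPKM, *nerfin-1* at 13.7, 17.8 and 152, and *tll* at 0.305, 0.602 and 7.83. *dpn* (32.4, 38.9 and 42.6 FPKM) and *insc* (16.8, 9.84 and 13.8) were not called in any comparison. Of 8 pan-neuronal genes 7 were called lower in both the tumor and the TME than in the control. The 8 genes summed to 35.7 FPKM (tumor), 35.5 (TME) and 326 (control). *elav*, the defining marker of neurons, was at 6.79, 7.90 and 57.3 FPKM, and *Syx1A*, which was not called, at 18.5, 13.8 and 17.5. Of 10 neurotransmitter genes of the CNS, where photoreceptors use histamine instead, 6 were called lower in the tumor and 5 in the TME, with summed levels of 29.1, 25.7 and 93.1 FPKM. *ple*, the tyrosine hydroxylase gene, was called higher in the tumor, and without it the other 9 genes summed to 5.48 FPKM (tumor), 16.1 (TME) and 84.7 (control). *VGlut* and *Gad1*, the markers of glutamatergic and GABAergic neurons, were listed at 0 in the tumor and were at 1.37 and 0.880 FPKM in the TME and 21.3 and 15.8 in the control. The part of CNS tissue in the levels of *alrm*, *Gs2*, *Eaat1* and *gcm* was not tested.

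Hemocyte genes moved with *repo* and *wrapper* in the tumor. All 5 hemocyte genes found were called lower in tumor cells, compared with control and with TME cells, with a summed level of 9.05 FPKM (tumor), 299 (TME) and 303 (control), and none at 0. *eater*, a phagocytic receptor, was at 0.518, 40.5 and 43.0 FPKM. Unlike *repo*, none of the 5 was called lower in the TME than in the control, and *Hml*, a hemocyte adhesion protein gene chosen after its values were seen, was called higher there at 1.64, 68.2 and 25.7 FPKM. Of 6 fat body genes, 3 were called lower in each of the other libraries than in the control, with summed levels of 0.716, 2.59 and 53.0 FPKM and 4 of the 6 at 0 in the tumor. The part of these cells in the levels of the glial genes was not tested.

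**Figure D4:**
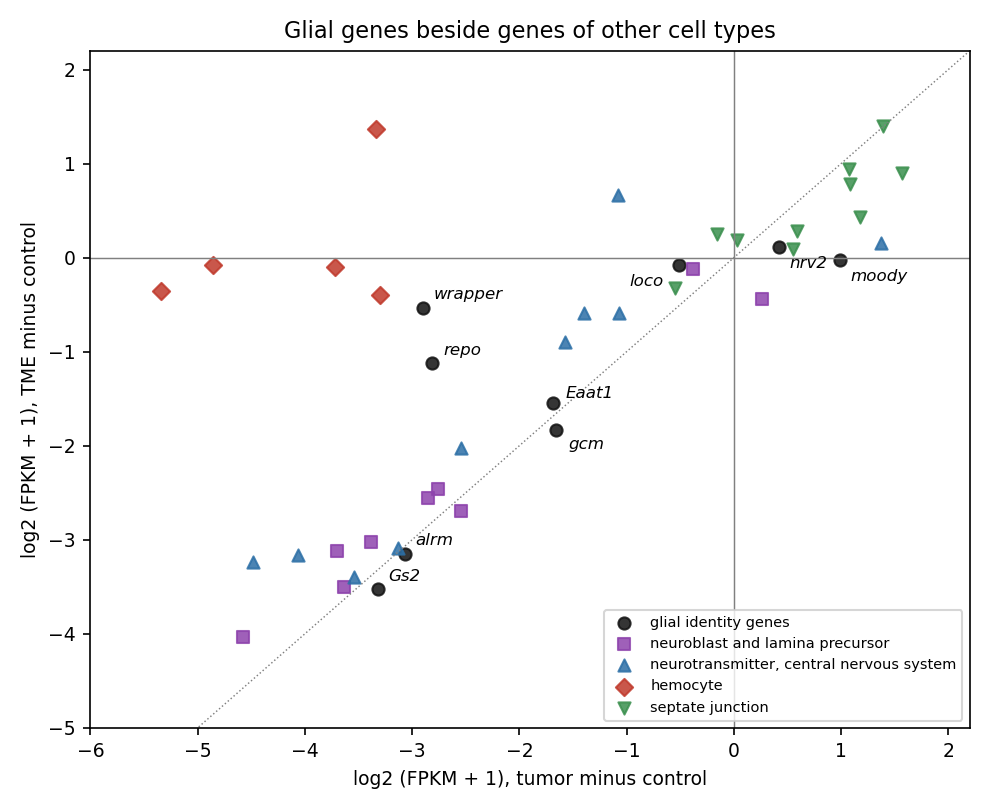
Difference in log2 (FPKM + 1) from the control for the tumor (x axis) and the TME (y axis), 1 point for each gene, with the 9 glial genes in black and named, and a dotted line where tumor and TME are equal. *alrm* and *Gs2* lie close to the line among neuroblast and neurotransmitter genes, *repo* and *wrapper* lie above it toward hemocyte genes, and *loco*, *nrv2* and *moody* lie near septate junction genes.

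Each joint pattern of the members also occurred among other genes of the table, at shares that differed widely. Of 7605 genes above 5 FPKM in the control, 13.0% were called lower in both other libraries, as were 5 of the 9 members, and 6.07% were lower in the tumor than in both other libraries, as were *repo* and *wrapper*. No call in any comparison was made for 63.5% of these genes, *loco* and *nrv2* included, and 2.41% were higher in the tumor than in both others, as was *moody*. The profile over the 3 libraries closest to the mean of *alrm*, *Eaat1* and *Gs2* was that of *CG4393*, at 0.363 FPKM (tumor), 0.321 (TME) and 8.03 (control). Next came *CG5890*, *CG43448*, *CG42587* and *CG10137*. *CG5890*, *CG43448* and *CG42587* were listed at 0 in tumor and TME. In the control they were at 5.51, 5.66 and 5.73 FPKM, just above the floor. Likeness was the distance between centered log2 (FPKM + 1) profiles, which was 0.0291 for *CG4393*, and 209 of 7465 protein-coding candidates lay within 0.5. *CG7950*, *sqh*, *barc*, *OstStt3* and *Cctgamma* were closest to *nrv2*, whose nearly flat profile had 3232 candidates within 0.5.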

How the data were processed

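RNA from 3 sorted pools was made into TruSeq libraries and sequenced on a MiSeq. The authors mapped the reads with the Tuxedo suite and deposited FPKM per gene. Neither the suite version, the gene annotation nor a strand setting is stated in the labels or the paper. The series design names cell sorting and the sample labels Trizol, the paper manual isolation of discs and column kits. With 1 library per pool, pool and library cannot be told apart. Columns were matched to samples by their headings, and all 3 were used. The 9 members and the 15 other gene lists were chosen with earlier results of these data known. All members are named. List symbols not found in the table were not analysed here. Other list genes named are up to 4 a list, by the largest tumor to control ratio and the highest level. *Obp44a*, *Hml*, *boss*, *lz*, *e*, *Mdr65*, *sls*, *Mhc*, *trh*, *btl*, *obst-A*, *gcm2*, *nrv1*, *insc*, *Syx1A* and the genes named in the overlap check were added after their values were seen.

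Depth was fitted to the steps of FPKM among 6562 genes with 1 transcript of 400 to 4000 nt, with lengths from the Ensembl BDGP6 annotation (14927 of 15603 identifiers matched, 95.7%). That assembly differs from the release mapped to, so no coordinates are given. Converted to fragments, 78.1% to 82.6% of low values were whole to within 0.1 (20% by chance). Fragments per gene used the shortest annotated transcript. A value of 0 can be a failed estimate, so no fold against 0 is printed, although a gene at 0 in the lower library was counted as called. Depth fit, intervals and the 2-fold rule were tested on simulated data. Alternatives covered the ratio, the floor, the pseudocount and 2 scalings. Python 3.11.15, numpy 2.4.6, pandas 2.3.3, scipy 1.17.1 and matplotlib 3.10.9 were used.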

Additional observations from a re-analysis of the deposited data

How the results depend on the processing

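Counts of called glial genes stayed within 1.5 times under each alternative run, but some genes left or joined the call. For tumor against control the count of 7 was 6 for ratios of 3 or more, with 1 added to both FPKM and with median ratio scaling, each without *moody*. For TME against control the count of 5 was 6 for ratios of 1.5 or more, which added *wrapper*, and 4 for ratios of 3 or more, which dropped *repo*. For tumor against TME the count of 3 was 2 for ratios of 3 or more and with either scaling, each without *moody*, and 2 with a floor of 10 FPKM, without *wrapper*. The median log2 ratio of the 9 genes for tumor over TME, 0.08, turned to -0.0071 with median ratio scaling and -0.018 with upper quartile scaling, and the cause was not tested beyond the scaling itself. For tumor over control that median ran from -1.97 with a pseudocount of 0.1 to -1.15 with a pseudocount of 5. Of 81 values of single glial genes under alternatives, 79 stayed within their counting interval, 2 moved outside it (*Gs2* for TME over control to -3.53 on the log2 scale with 1 added to FPKM, and *nrv2* for tumor over TME to 0.17 with upper quartile scaling), and none of the called ones changed direction. With 1 library per pool, no library could be left out of a comparison, and the depth of the tumor and control libraries limits genes with few fragments.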

Other observations

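*Obp44a*, an odorant binding protein gene known from glia of the larval CNS, was chosen after its values were seen. It was at 22.3 FPKM (tumor), 126 (TME) and 656 (control), with the control 29.5-fold above the tumor (95% counting interval 19.0 to 48.9) and 5.19-fold above the TME (4.65 to 5.79). Its order over the libraries is that of *repo*, not that of *alrm*. Of 5 muscle and myoblast genes, 2 were called lower in tumor cells than in control and TME cells, beside 20.2% and 8.72% of all genes. The titin-like gene *sls* was the 1 called higher in tumor and in TME cells than in control cells, beside 12.4% and 6.39% of all genes. The 5 genes had summed levels of 37.7 FPKM (tumor), 60.9 (TME) and 61.6 (control). *Him*, which holds back muscle differentiation, was at 0.711 FPKM (tumor), 17.5 (TME) and 30.8 (control), and *twi*, the mesodermal bHLH factor gene, at 1.26, 13.1 and 10.03. *sls* was at 12.1 FPKM (tumor), 7.11 (TME) and 3.36 (control), and *Mhc*, the muscle myosin gene, at 4.42, 3.51 and 1.29. Among neurotransmitter genes, *ple*, the tyrosine hydroxylase gene that epidermis also uses for cuticle, was called higher in the tumor than in both other libraries, at 23.6 FPKM (tumor), 9.57 (TME) and 8.49 (control). Of 5 trachea genes, 2 were called higher in tumor cells and 3 in TME cells than in control cells, beside 12.4% and 6.39% of all genes. They were led by the chitin-binding protein gene *Gasp* at 294 FPKM (tumor), 357 (TME) and 76.5 (control). *obst-A*, a chitin-binding protein gene, was called lower in tumor than in TME cells, at 30.4, 72.4 and 30.4 FPKM. The genes of tracheal fate in the list were under the floor in each library and were not among those higher, with *trh* at 1.37 FPKM (tumor), 1.24 (TME) and 2.97 (control) and *btl* at 1.21, 1.79 and 2.19.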
